A study of Bos taurus with 36 samples.

Results

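The genes of cardiac calcium handling and excitation were followed in bulk RNA sequencing of male bovine fetuses. The 9 genes were RYR2, ATP2A2, PLN, SLC8A1, CACNA1C, CASQ2, HCN4, GJA1 and POPDC2, taken by their bovine RefSeq symbols from a table of 35092 genes, of which 31630 had a symbol. Embryos on Day 7 of development were transferred either to heifers on Day 7 of the cycle (ET_D7, synchronous) or to heifers on Day 9 (ET_D9, asynchronous), and the fetuses were collected on Day 42. Fetuses are numbered here by weight, from 1 (1.253 g) to 10 (1.69 g). Fetuses 1 to 5 were ET_D7 and fetuses 6 to 10 were ET_D9, so every ET_D9 fetus weighed more than every ET_D7 fetus and the 2 factors vary together. All fetuses were male and of the same gestational age. The libraries were 9 of heart (without fetus 7), 9 of gonads (without fetus 2), 8 of liver (without fetuses 6 and 7) and 10 of maternal blood.

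In a heart muscle cell, an action potential opens L-type calcium channels, and the calcium that enters makes the ryanodine receptor release much more from the sarcoplasmic reticulum, the store that drives contraction. A pump then returns calcium to the store and an exchanger moves it out of the cell, while pacemaker channels set the rhythm and gap junctions pass the impulse to the next cell. The heart is the first organ of the embryo to work, and it beats long before its chambers are mature.

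Total counts per library lay between 18231089 and 40812354. The share of reads on mitochondrially encoded genes was 17.1% to 57.3% in heart, 16.3% to 36.8% in liver and 3.31% to 7.23% in gonads. The unit of level is CPM, counts per library brought to the same total with TMM scaling, a method that corrects for a few very abundant genes. CPM are not divided by gene length, so levels were compared between tissues and fetuses but not between genes. In bulk tissue, fewer cells of a type and less RNA per cell cannot be told apart. A list of 15 cardiomyocyte genes summed to between 50123 and 71927 CPM in heart and to no more than 53.4 CPM in gonads. The libraries labelled gonads held 103 to 138 CPM of PAX2, a gene of the embryonic kidney. The Sertoli cell genes AMH and DMRT1 reached only 2.26 CPM and 0.278 CPM there. WT1 had 88.5 to 166 CPM in the same libraries. It stands in both the mesonephros (embryonic kidney) and the epicardium lists used below, so it does not mark kidney alone. These libraries are called gonads below as the labels have it.

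PLN (Entrez 100125240), which encodes phospholamban, the small protein that restrains the calcium pump, was listed at 0 in 36 of 36 libraries, heart included. A count of 0 allows up to 0.143 CPM in the shallowest heart library, for counting error only. In the reference table the span of PLN lies inside that of CEP85L, which had 412 to 1248 reads per heart library. In all, 9408 genes of the table were at 0 in every library. Among the other calcium and junction genes examined, HRC, CASQ1, ERLN, CAV3 and XIRP1 were also at 0 in every organ library, so the 0 of PLN is given as listed and not as an absence of its mRNA. The other 8 genes had reads in the organs and were tested.

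**Figure D1:**
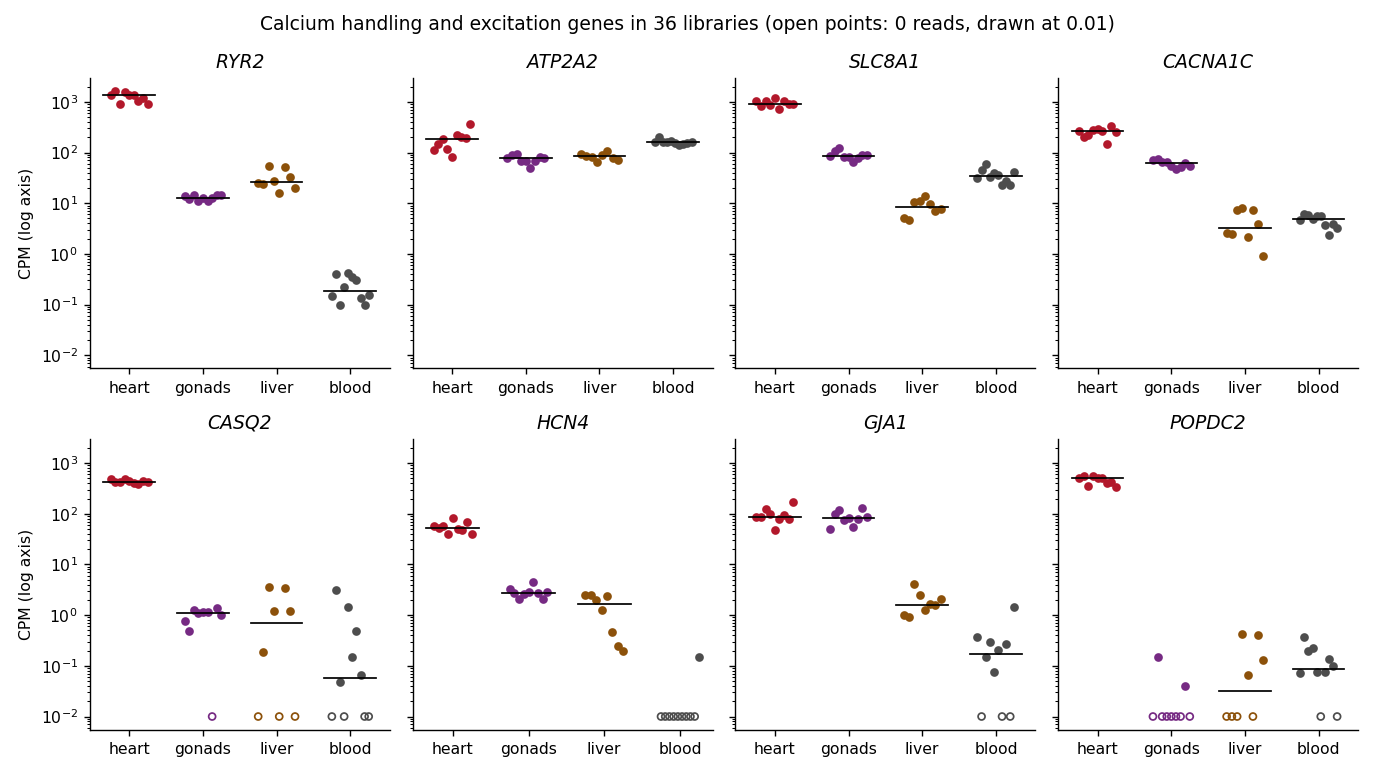
Level of 8 genes (CPM, log axis) in each of the 36 libraries, by tissue, with a black line at each tissue's median where it is above 0 and open points at 0.01 for libraries with 0 reads. The heart points of RYR2, SLC8A1, CACNA1C, CASQ2, HCN4 and POPDC2 lie above every gonads and liver point, whereas those of ATP2A2 and GJA1 overlap other organs. Blood was scaled separately and made with another kit, and its position against the organs is not a comparison.

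The release of calcium from the store involves RYR2, the cardiac ryanodine receptor, and CASQ2, the cardiac calsequestrin that holds calcium inside the store. RYR2 (Entrez 537376) lay between 889 and 1628 CPM in heart, with a median of 1339 (n = 9). In gonads it lay between 11.2 and 14.6 CPM with a median of 13.0 (n = 9), and in liver between 16.3 and 55.3 CPM with a median of 26.2 (n = 8). The lowest heart library was thus above every library of the other organs, and liver was above gonads in all its libraries. RYR2 was 96.3-fold higher in heart than in gonads (log2 difference 6.59, SE 0.24, adjusted p = 7.06e-19, edgeR's quasi-likelihood test with Benjamini-Hochberg adjustment) and 39.9-fold higher than in liver (log2 difference 5.32, SE 0.24, adjusted p = 2.47e-17, edgeR). It was lower in gonads than in liver by 2.42-fold (adjusted p = 1.91e-06, edgeR).

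CASQ2 (Entrez 528555) lay between 389 and 483 CPM in heart, with a median of 426 (n = 9). In gonads it ranged from 0 to 1.41 CPM with a median of 1.12, with 0 reads in 1 of 9 libraries, and in liver from 0 to 3.53 CPM with a median of 0.693, with 0 reads in 3 of 8 libraries. Heart was far above both organs, which overlapped each other. The log2 difference was 8.87 against gonads (SE 0.66, adjusted p = 5.6e-12, edgeR) and 8.52 against liver (SE 0.70, adjusted p = 1.97e-11, edgeR). Gonads and liver did not differ beyond their spread (log2 difference -0.35, 95% interval -1.55 to 0.86, adjusted p = 0.612, edgeR). CASQ2 was also the most even of the 8 genes among hearts, with a coefficient of variation of 7.23%.

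Calcium is taken back into the store by ATP2A2, the SERCA2 pump, and sent out of the cell by SLC8A1, the sodium-calcium exchanger. ATP2A2 (Entrez 540568) lay between 81.7 and 368 CPM in heart with a median of 186 (n = 9). In gonads it lay between 49.7 and 94.7 CPM with a median of 76.7 (n = 9), and in liver between 64.3 and 108 CPM with a median of 83.9 (n = 8). The heart of fetus 5 fell among the libraries of the other organs, and gonads and liver overlapped. The mean of hearts was still higher, by 2.41-fold against gonads (log2 difference 1.27, SE 0.20, adjusted p = 3.64e-06, edgeR) and 2.15-fold against liver (log2 difference 1.11, SE 0.20, adjusted p = 3.16e-05, edgeR). Gonads and liver differed by -0.16 on the log2 scale (95% interval -0.57 to 0.24, adjusted p = 0.477, edgeR). The span of ATP2A2 overlaps that of ANAPC7, which had 1707 to 3532 reads per heart library.

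SLC8A1 (Entrez 337925) lay between 707 and 1181 CPM in heart with a median of 904 (n = 9). It lay between 66.4 and 123 CPM in gonads with a median of 86.3 (n = 9), and between 4.70 and 13.6 CPM in liver with a median of 8.50 (n = 8). The 3 organs did not overlap, and they stood in the order heart, gonads, liver. Heart was 10.6-fold above gonads (log2 difference 3.41, SE 0.18, adjusted p = 1.98e-15, edgeR) and gonads 10.3-fold above liver (log2 difference 3.36, SE 0.19, adjusted p = 3.78e-15, edgeR). The exchanger is known outside the heart as well, and its gonads libraries held 3194 to 6827 reads each.

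Excitation rests on CACNA1C, the pore of the L-type calcium channel, and on HCN4, the channel of the pacemaker current. CACNA1C (Entrez 408015) lay between 150 and 334 CPM in heart with a median of 261 (n = 9). It lay between 47.5 and 74.0 CPM in gonads with a median of 61.8 (n = 9), and between 0.915 and 7.90 CPM in liver with a median of 3.21 (n = 8). The order was again heart, gonads, liver without overlap. Heart was 4.12-fold above gonads (log2 difference 2.04, SE 0.25, adjusted p = 9.92e-08, edgeR) and 58.6-fold above liver (log2 difference 5.87, SE 0.32, adjusted p = 2.68e-15, edgeR), and gonads were 14.2-fold above liver (adjusted p = 3.77e-12, edgeR). The span of CACNA1C overlaps that of DCP1B, which had 1346 to 2958 reads per heart library.

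HCN4 (Entrez 785689) lay between 39.4 and 81.9 CPM in heart with a median of 53.3 (n = 9). It lay between 2.04 and 4.51 CPM in gonads with a median of 2.79 (n = 9), and between 0.196 and 2.47 CPM in liver with a median of 1.64 (n = 8). Heart stood apart, whereas gonads and liver overlapped. Heart was 19.4-fold above gonads (log2 difference 4.28, SE 0.34, adjusted p = 2.34e-11, edgeR) and 38.2-fold above liver (log2 difference 5.26, SE 0.38, adjusted p = 1.55e-12, edgeR). Gonads were 1.97-fold above liver (log2 difference 0.98, SE 0.33, adjusted p = 0.0122, edgeR). The liver libraries of fetuses 1, 2 and 5 had 2.35 to 2.47 CPM of HCN4, those of fetuses 8, 9 and 10 had 0.196 to 0.464 CPM, and fetuses 3 and 4 stood in between.

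Cells are joined electrically by GJA1, connexin 43, the main gap junction protein of working ventricular muscle and of many other tissues. POPDC2 is a Popeye domain protein that binds cyclic AMP and is known from heart and skeletal muscle. GJA1 (Entrez 281193) lay between 48.8 and 168 CPM in heart with a median of 86.0 (n = 9), and between 50.2 and 129 CPM in gonads with a median of 83.3 (n = 9). In liver it lay between 0.931 and 4.12 CPM with a median of 1.60 (n = 8). Heart and gonads overlapped over most of their ranges, and both were above every liver library. Heart and gonads differed by 0.15 on the log2 scale (SE 0.23, 95% interval -0.32 to 0.62, adjusted p = 0.629, edgeR), and heart was 51.6-fold above liver (log2 difference 5.69, SE 0.31, adjusted p = 1.77e-15, edgeR).

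POPDC2 (Entrez 540535) lay between 343 and 567 CPM in heart with a median of 506 (n = 9). Its reads outside heart were close to none: the 9 gonads libraries held 10 reads in all, with 0 in 7 of them, and the 8 liver libraries held 18 reads, with 0 in 4 of them. The heart libraries held 94395 reads. Pooled over libraries, the ratio of heart to gonads was 21228 (95% interval 11543 to 44269) and that of heart to liver 4011 (95% interval 2538 to 6768). These exact Poisson intervals cover counting error only and take each read as independent. Every count above 0 was even in gonads (8 and 2) and in liver (6, 2, 8 and 2). If both reads of a pair were counted, the intervals are too narrow even for counting error, which was not tested. The fitted log2 differences were 14.18 against gonads (SE 0.52, adjusted p = 9.69e-19, edgeR) and 11.95 against liver (SE 0.51, adjusted p = 9.97e-18, edgeR). The fitted difference between gonads and liver of -2.23 (SE 0.85, adjusted p = 0.0236, edgeR) rests on those 28 reads, and with fetus as a block it was -2.07 (SE 0.98, adjusted p = 0.0849, edgeR). The same call was lost without fetus 4, 9 or 10, with values between -2.04 and -1.63.

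Over the set, 7 of the 8 genes tested were higher in heart than in gonads, where 46.6% of 25095 genes were called in either direction and 23.5% as higher. Against liver, 8 of 8 were higher in heart, where 58.6% of all genes were called and 27.9% as higher. The 7 genes higher than in both organs were all but GJA1, against 11.1% of all genes, and for 6 of the 9 the lowest heart library was above every gonads and liver library, against 5.22% of all genes. The genes were listed as cardiac genes, so these counts describe them and were not tested as a set. The median log2 difference of the 8 was 3.84 against gonads and 5.78 against liver, with medians of -0.08 and 0 over all genes tested. Between gonads and liver, 6 of 8 were called, 4 higher in gonads (SLC8A1, CACNA1C, HCN4 and GJA1) and 2 lower (RYR2 and POPDC2), where 64.4% of all genes were called, 30.8% as higher and 33.6% as lower.

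**Figure D2:**
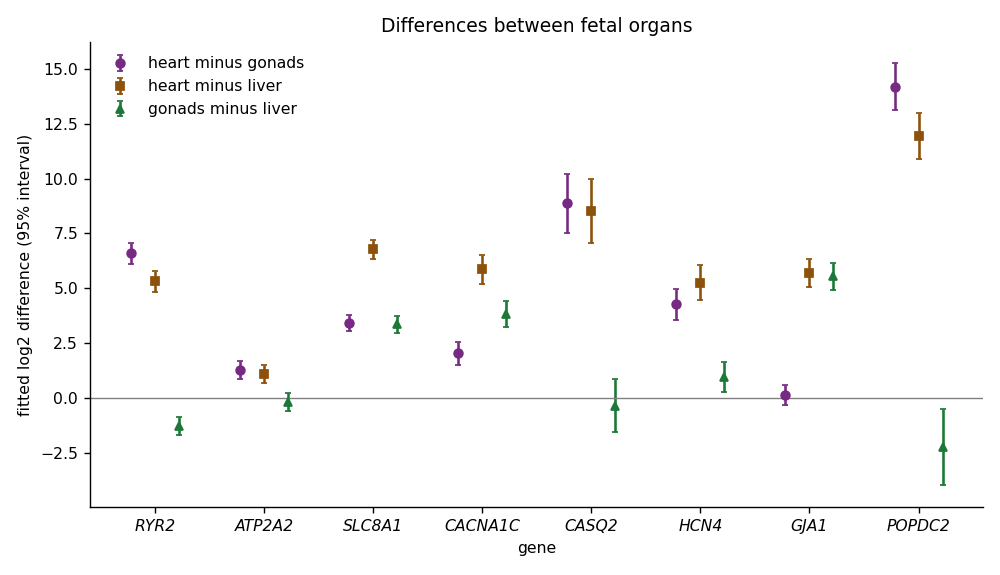
Fitted log2 difference of 8 genes between fetal organs (vertical axis, log2 scale, 0 means no difference), with 95% intervals as bars. Heart minus gonads (circles) and heart minus liver (squares) lie above 0 for every gene except GJA1, whose interval against gonads runs from -0.32 to 0.62. Gonads minus liver (triangles) is above 3 for SLC8A1, CACNA1C and GJA1 and below 0 for RYR2 and POPDC2.

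Of the 6 genes with reads in every gonads and liver library, 5 spread over a wider range in liver, the exception being ATP2A2 (1.68-fold in liver and 1.90-fold in gonads). RYR2 varied 3.40-fold among livers and less among gonads, and CACNA1C 8.63-fold among livers and 1.56-fold among gonads. The livers of fetuses 3 and 8 had the most RYR2 (55.3 and 51.6 CPM) and the most CASQ2 (3.53 and 3.37 CPM). Cardiomyocyte genes also varied among livers: the list summed to 4478 CPM in the liver of fetus 3, 2329 in that of fetus 4, 814 in that of fetus 5 and 151 in that of fetus 8, and to no more than 81.6 CPM in the other 4. MYL2 supplied 40909 reads in the liver of fetus 3 and 0 or 1 read in the livers of fetuses 1, 2, 8, 9 and 10, and NKX2-5, a cardiac transcription factor, was at 0 reads in 8 of 8 livers. Lists of 8 neural and 8 mesonephros (embryonic kidney) genes were highest in the livers of fetuses 3 and 8. The neural list summed to 38.5 and 38.9 CPM there, against 10.0 to 29.6 CPM in the others. The mesonephros list summed to 278 and 221 CPM, against 123 to 211 CPM. Each other cell type list had a different pair of livers at its top. The part of other muscle RNA and of these lists in the liver values of RYR2 and CASQ2 was not tested. The log2 difference of RYR2 between heart and liver lay between 5.15 and 5.49 under 15 alternative settings, those without fetus 3 or 8 included.

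The second question was whether the genes changed in heart with fetal weight, and for it CPM were scaled over the 9 heart libraries alone. A smooth curve of weight (a natural cubic spline with 3 terms) was called for 0 of the 8 genes at an adjusted p under 0.05, and 0 of 8 had an unadjusted p under 0.05 (edgeR). Over all 16250 genes tested, 0% were called and 7.99% had an unadjusted p under 0.05. A straight line of weight was called for 0 of 8, with 2 of 8 at an unadjusted p under 0.05, where 6.78% of all genes were called and 29.1% had an unadjusted p under 0.05. DESeq2 called 1 of 8, ATP2A2, where of all 16250 genes it called 2217 as rising and 849 as falling. By edgeR, 0 of all genes were called along the line with transfer group as a covariate (570 at an unadjusted p under 0.05), without fetuses 9 and 10 (1833), scaled to cardiomyocyte genes (3775), or without fetus 1, 2, 4, 5, 8 or 10 (1991 to 4379).

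**Figure D3:**
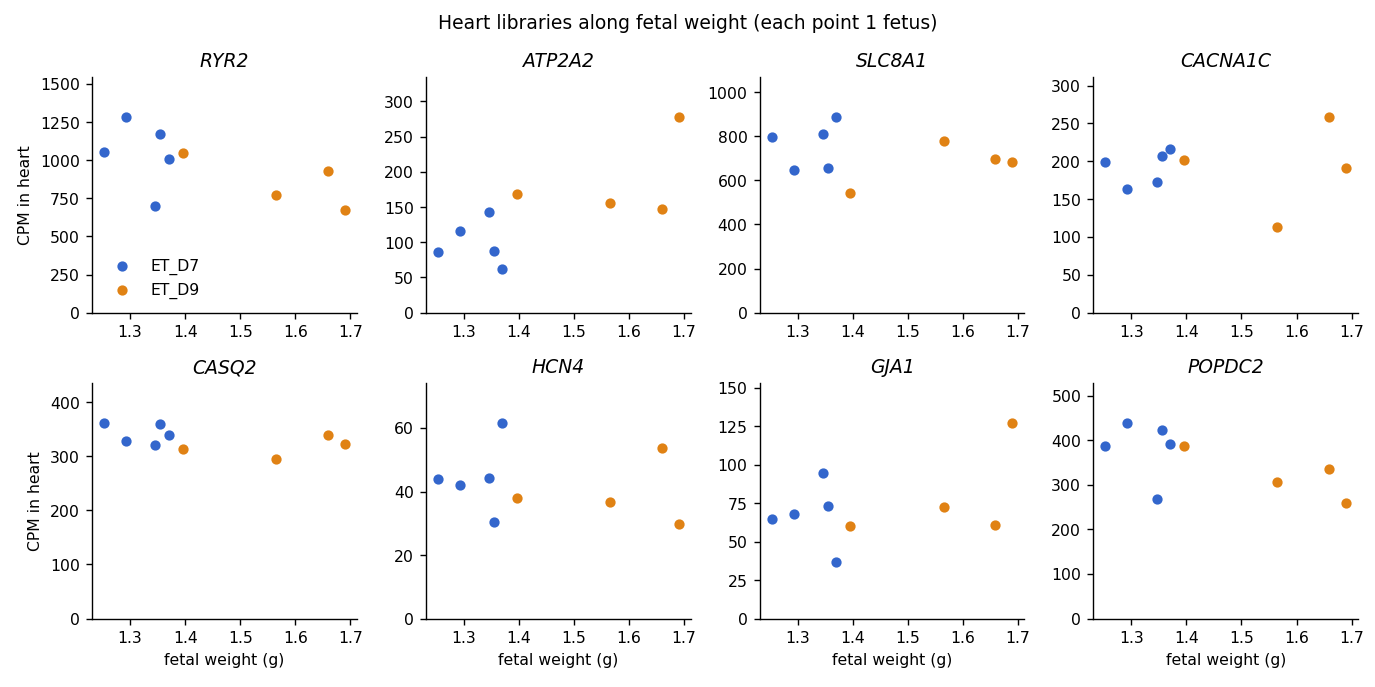
Level in heart (CPM scaled over the heart libraries, axis from 0) of 8 genes against fetal weight (g), with 1 point per fetus, blue for ET_D7 and orange for ET_D9. ATP2A2 is highest in the heaviest fetus (278 CPM), RYR2 and POPDC2 are lowest there, and CASQ2 stays between 295 and 363 CPM.

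ATP2A2 had the steepest line. From the lightest to the heaviest fetus with a heart library it stood at 86.3, 116, 143, 87.0, 61.6, 169, 156, 147 and 278 CPM. Fetus 10 was the highest and fetus 5 the lowest, and fetuses 6, 8, 9 and 10 were above all 5 lighter ones. The slope was 0.28 on the log2 scale per 0.1 g (SE 0.09, 95% interval 0.08 to 0.47, unadjusted p = 0.00959, adjusted p = 0.075, edgeR), which is 1.21-fold per 0.1 g. Without fetus 10 the slope was 0.18 (adjusted p = 0.513, edgeR), and without fetus 3 it was 0.30 and called (adjusted p = 0.0334, edgeR). In the fit without fetus 3, 2352 of 15907 genes were called as rising and 1595 as falling. With transfer group as a covariate, the slope within groups was 0.11 (SE 0.16, adjusted p = 0.815, edgeR). The adjusted p lay between 0.0137 and 0.815 over 16 alternatives.

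The transfer groups were then set side by side. In ET_D7 hearts ATP2A2 lay at 61.6, 86.3, 87.0, 116 and 143 CPM, and in ET_D9 hearts at 147, 156, 169 and 278 CPM, without overlap. It was the only one of the 8 genes whose groups did not overlap, where 10.1% of all genes tested had groups apart. The log2 difference of ET_D9 to ET_D7 was 0.93 (SE 0.26, 95% interval 0.34 to 1.51, unadjusted p = 0.00559, adjusted p = 0.0806, edgeR), and 0 of 8 genes were called, against 0.0492% of all genes. By DESeq2 the same difference was 0.96 (adjusted p = 0.0095) and 1 of 8 genes was called. Of all 16250 genes, DESeq2 called 1596 as higher in ET_D9 hearts and 570 as lower. Over 13 alternatives the adjusted p of ATP2A2 lay between 0.0095 and 0.232. Without fetus 3 the log2 difference of ATP2A2 was 1.10 (adjusted p = 0.0208, edgeR), where 2017 of 15907 genes were called as higher and 829 as lower. Endothelial genes were apart in the same way: a list of 8 summed to 271 to 316 CPM in ET_D7 hearts and to 354 to 441 CPM in ET_D9 hearts, and 4 of the 8 (PECAM1, CDH5, ESAM and EMCN) were called as rising with weight, calls that ended under the settings named above. The epicardium list of 6 genes was apart too, at 53.9 to 75.7 CPM in ET_D7 hearts and 77.9 to 91.7 CPM in ET_D9 hearts, whereas the groups overlapped for the other 10 cell type lists. Of the pathway lists described below, that of calcium release and storage was apart as well. It summed to 940 to 1017 CPM in ET_D7 hearts and 1039 to 1156 CPM in ET_D9 hearts, and the groups overlapped for the other pathway lists. CALR was the largest part of that sum, with a mean of 473 CPM in heart (scaled over the organs). Its log2 difference of ET_D9 to ET_D7 was 0.56 (adjusted p = 0.0689, edgeR). The median difference of the 19 genes tested in the list was -0.18, so the sum does not describe most of its genes. The part of any of these lists in the ATP2A2 values was not tested.

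RYR2 and POPDC2 leaned the other way. RYR2 in heart lay between 673 CPM (fetus 10) and 1286 CPM (fetus 2), with fetuses 3 and 8 at 700 and 773 CPM. POPDC2 lay between 260 CPM (fetus 10) and 440 CPM (fetus 2), with fetuses 3 and 8 at 269 and 306 CPM, so the same fetuses were high and low for both genes. The slopes were -0.13 per 0.1 g for RYR2 (95% interval -0.26 to 0.00148, adjusted p = 0.176, edgeR) and -0.11 for POPDC2 (95% interval -0.22 to -2.17e-05, adjusted p = 0.172, edgeR). Without fetus 3, an ET_D7 heart, both were called, at -0.15 (adjusted p = 0.0339, edgeR) and -0.13 (adjusted p = 0.029, edgeR). That fit called many genes: of 15907 tested, 2352 were called as rising and 1595 as falling. Over 16 alternatives the adjusted p reached 0.699 for both genes.

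The other 5 genes gave slopes between -0.03 and 0.12 per 0.1 g. GJA1 had the largest of these, 0.12 (95% interval -0.06 to 0.31, adjusted p = 0.353, edgeR), and it rested on fetus 10, whose heart had 127 CPM against 36.7 to 94.5 CPM in the others; without that heart the slope was -0.02. HCN4 ranged from 29.8 CPM (fetus 10) to 61.7 CPM (fetus 5), and its slope was -0.03 (95% interval -0.19 to 0.13, adjusted p = 0.79, edgeR). CACNA1C ranged from 114 CPM (fetus 8) to 259 CPM (fetus 9), 2 neighbours in weight, with a slope of 0.02 (95% interval -0.13 to 0.17, adjusted p = 0.857, edgeR). For CASQ2 and SLC8A1 the 95% intervals of the slope were -0.10 to 0.05 and -0.13 to 0.09.

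RYR2 and POPDC2 moved together among hearts. There were 34.2 to 39.7 POPDC2 reads for every 100 RYR2 reads, a 1.16-fold range, while RYR2 itself varied 1.91-fold in CPM. Across the 9 hearts the log2 levels had Pearson's r = 0.99 (exact permutation p = 1.65e-05, adjusted p = 0.000463 over the 28 pairs of genes) and Spearman's rho = 0.93 (exact permutation p = 0.00075, adjusted p = 0.021), both two-sided, and r was 0.97 without the 2 hearts farthest from the median of RYR2. It was the only pair of the 28 with an adjusted p under 0.05, and 6 pairs had an unadjusted p under 0.05. By contrast, ATP2A2 ran from 6.11 reads per 100 RYR2 reads (fetus 5) to 41.4 (fetus 10), a 6.77-fold range, and GJA1 from 3.64 (fetus 5) to 18.9 (fetus 10), a 5.20-fold range. No correlation was given within the 5 ET_D7 or the 4 ET_D9 hearts, since both are under the minimum of 6 libraries used here. The r of RYR2 and POPDC2 was not the highest of either gene. Across the 9 hearts RYR2 had r = 0.997 with PIGL and with DHX16, and POPDC2 had r = 0.998 with LOC505600. The share of all heart genes with such an r was not computed.

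Both genes followed the share of mitochondrially encoded reads. That share was 57.3% in the heart of fetus 2, where RYR2 and POPDC2 were highest, and 23.5% and 17.1% in fetuses 3 and 10, where they were lowest. Pearson's r with the share was 0.95 for RYR2 (exact permutation p = 5.79e-05, adjusted p = 0.000372 over 9 relations) and 0.94 for POPDC2 (exact permutation p = 8.27e-05, adjusted p = 0.000372), and Spearman's rho was 0.97 (exact permutation p = 0.000165, adjusted p = 0.00149) and 0.90 (exact permutation p = 0.00203, adjusted p = 0.00913), all two-sided. Without the 2 hearts farthest from the median share, r was 0.90 and 0.93. How many of all heart genes followed the share as closely was not computed. ATP2A2 had r = -0.66 (exact permutation p = 0.0527, adjusted p = 0.119), and fetal weight itself r = -0.76 with the share (exact permutation p = 0.0187, adjusted p = 0.0562). With mitochondrially encoded genes left out of the counts the weight slopes of RYR2 and POPDC2 stayed at -0.13 and -0.11. TMM scaling already corrects for such abundant genes, so this setting is no test of the share. Some cell type lists also had their extremes in fetuses 3 and 10. The cardiomyocyte list was lowest in fetuses 3 and 10 (38455 and 43141 CPM, against 46915 to 54189 in the others), as was the smooth muscle list (2319 and 2615 CPM), and the fibroblast list was highest there (2854 and 2970 CPM, against 1526 to 2410). In the other hearts the cardiomyocyte list and the genes differed in order. That list was highest in fetus 5 (54189 CPM), with RYR2 at 1009 CPM. It stood at 49407 CPM in fetus 2, where both genes were highest. The part of the mitochondrial share and of the cell type lists in the values of RYR2 and POPDC2 was not tested.

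**Figure D4:**
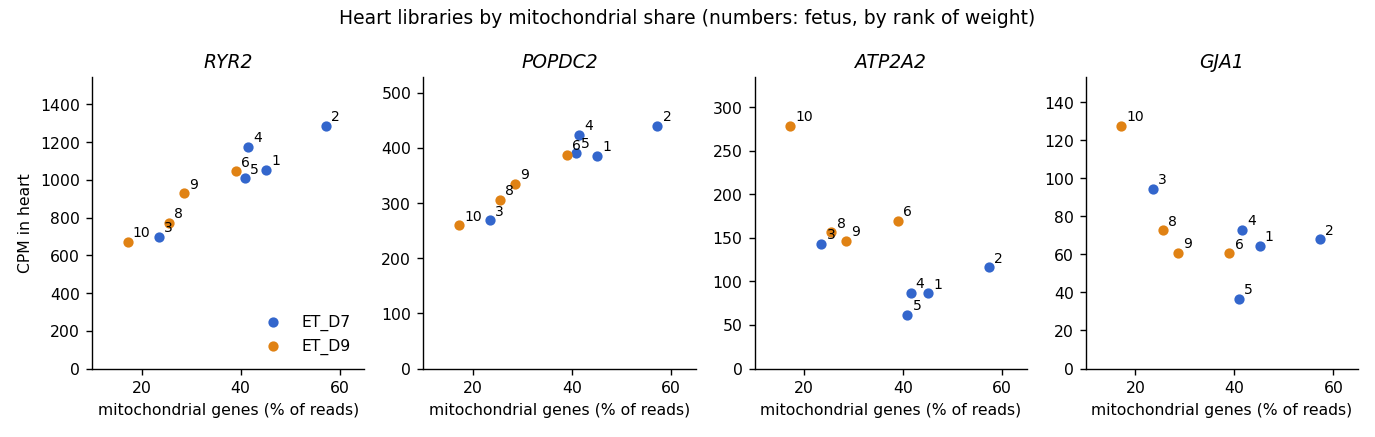
Level in heart (CPM scaled over the heart libraries, axis from 0) of RYR2, POPDC2, ATP2A2 and GJA1 against the percentage of reads on mitochondrially encoded genes, with 1 point per fetus, numbered by rank of weight, blue for ET_D7 and orange for ET_D9. RYR2 and POPDC2 climb with the share from fetus 10 (17.1%) to fetus 2 (57.3%), and ATP2A2 and GJA1 are highest in fetus 10.

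Other genes of the same pathways were counted from 6 lists, with a gene called higher or lower in heart only when it passed against both organs; over all genes 11.1% were higher and 8.26% lower. Of 19 genes tested for calcium release and storage, 8 were higher and 3 lower. The largest were SRL (sarcalumenin) at 184 CPM in heart against 2.99 in gonads and 1.65 in liver, JPH2 (junctophilin, which holds the store to the cell membrane) at 64.0 against 0.606 and 1.91, TRDN (triadin, which joins calsequestrin to the receptor) at 17.5 against 0.0239 and 0.690, and AKAP6 at 78.2 against 3.85 and 1.53. The other ryanodine receptors went the opposite way to RYR2: RYR1 had 8.55 CPM in heart against 37.0 in gonads and 16.7 in liver, and RYR3 had 4.53 against 56.0 and 8.09. The third gene lower in heart was S100A1, at 0.987 CPM against 1.79 and 8.42.

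Of 15 genes tested for calcium removal, 2 were higher and 2 lower. STRIT1, a small peptide that favours the pump, had 1.31 CPM in heart and was at 0 in every liver library. SLC8A3, an exchanger paralog, had 0.781 CPM in heart against 3.96 in gonads and 3.90 in liver, and MCU, the mitochondrial calcium channel, had 16.5 against 24.1 and 30.8. The pump paralogs ATP2A1 and ATP2A3 had 10.5 and 11.3 CPM in heart and passed against both organs in neither direction. SLC8A2 had 0.775 CPM in heart against 6.13 in gonads.

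Of 18 genes tested for calcium channel subunits, 4 were higher and 2 lower. The higher ones were CACNA1H, a T-type pore, at 328 CPM in heart against 93.2 in gonads and 114 in liver, CACNA2D1 at 77.7 against 29.4 and 4.25, CACNB2 at 26.4 against 6.85 and 11.4, and CACNG6 at 3.21 CPM, which was at 0 in every liver library. CACNA2D3 and CACNG4 were the lower ones, at 3.47 and 8.18 CPM in heart. The L-type paralogs CACNA1D and CACNA1S had 9.43 and 13.7 CPM in heart, and neither passed against gonads.

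Of 24 genes tested for pacemaker, sodium and potassium channels, 7 were higher and 3 lower. KCNJ5 had 108 CPM in heart against 0.275 in gonads and 0.278 in liver, KCNE1 had 56.7 against 0.0142 and 0.108, and KCNJ11 had 6.79 against 0.212 and 0.0887. KCND2 and KCND3 were lower, at 0.587 and 0.326 CPM in heart. Unlike HCN4, its paralogs HCN2 and HCN3, at 11.1 and 0.278 CPM in heart, did not pass against both organs.

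Of 12 genes tested for gap junctions and Popeye proteins, 5 were higher and 1 lower. The Popeye paralogs BVES and POPDC3 had 135 and 34.9 CPM in heart against 1.83 and 1.01 in gonads and 0.437 and 3.07 in liver. Unlike GJA1, the connexin genes GJA5 (158 CPM in heart against 5.60 in gonads and 7.93 in liver), GJA4 (68.1 against 3.29 and 7.17) and GJA3 (2.37 against 0.0224, and 0 in every liver library) were higher in heart than in both organs. GJC1, like GJA1, did not pass against gonads, with 53.3 CPM in heart and 56.7 in gonads. GJB1, a liver connexin, was lower, at 0.155 CPM in heart against 30.1 in liver.

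Of 10 genes listed as regulators of pacemaker and conduction tissue, 2 were higher and 0 lower. HAMP, which encodes hepcidin, an iron hormone of the liver, stood in that list by mistake; at 0.224 CPM in heart against 159 in liver it counted as neither, and the other 9 give the same counts. The higher genes were IRX4, a ventricular factor, at 486 CPM in heart against 0.017 in gonads and 0.307 in liver, and IRX3 at 20.9 against 6.16 and 0.198. Over the 6 lists, 6 of 81 genes tested (7.41%) were called along fetal weight in heart, against 6.78% of all genes, with CALR, KCNE1 and TBX18 rising and ITPR2, CACNA2D3 and IRX3 falling. These calls, too, ended under the settings in which no gene was called. TBX18 had the largest of these slopes, 0.60 per 0.1 g (SE 0.10, adjusted p = 0.0395, edgeR), and IRX3 had -0.28 (SE 0.04, adjusted p = 0.0395, edgeR). TBX18 is also a gene of the epicardium list, in which 5 of 6 slopes were above 0 and TBX18 alone was called; UPK1B had 0.38 and WT1 0.27.

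**Figure D5:**
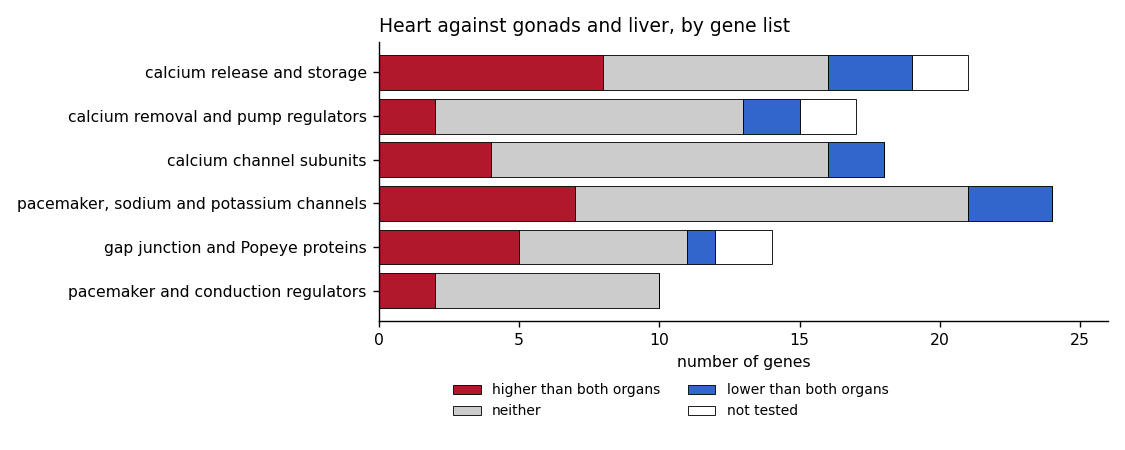
Number of genes in each of 6 pathway lists (horizontal axis) that were higher in heart than in both gonads and liver (red), lower than in both (blue), neither (grey) or not tested for want of reads or a row (white). Higher genes outnumber lower ones in 5 of the 6 lists and equal them, 2 and 2, in calcium removal.

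The genes whose levels ran most like each of the 8 were sought among 9436 genes with a mean of at least 10 CPM in heart, as a description with no test. Over the 26 organ libraries, which fall into 3 tissues, RYR2 was most like MTUS2 and MYBPC3 (Pearson's r = 0.99 for both), CASQ2 like CKM and SMYD1 (0.96 for both), HCN4 like SH3BGR and SRL (0.98 and 0.97) and POPDC2 like DDAH1 and GEM (0.98 for both). SLC8A1 was most like SPTBN1 and BMP7 (0.99 for both), CACNA1C like LAMC1 and ITGA11 (0.99 for both) and GJA1 like DIXDC1 and TGFB2 (0.99 and 0.98). ATP2A2 had the weakest likeness, 0.87 with both ARHGEF26 and UQCRFS1. Within the 9 hearts the partners were different genes, for example ATXN10 and ZBTB38 for ATP2A2 (0.999 and 0.993), PIGL and DHX16 for RYR2 (0.997 for both) and LOC505600 and VAMP5 for POPDC2 (0.998 and 0.996), and with 9 libraries and 9436 genes such values describe these libraries only.

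In maternal blood, read on its own scale, ATP2A2 lay between 138 and 207 CPM with a median of 158 (n = 10), SLC8A1 between 22.7 and 60.0 CPM with a median of 34.8, and CACNA1C between 2.35 and 6.19 CPM with a median of 4.78. These 3 genes were read in 10 of 10 blood libraries. RYR2 had 4 to 17 reads per library, POPDC2 at most 16 and GJA1 at most 56, and HCN4 was at 0 in 9 of 10. CASQ2 was at 0 in 4 of 10 and had 134 reads in the dam of fetus 2 and 38 in the dam of fetus 5. Those were also the 2 blood libraries with muscle genes: a list of 9 skeletal muscle genes summed to 1148 and 499 CPM in them and to no more than 28.1 CPM in the other 8. The cardiomyocyte list, which shares MYH7 and others with slow skeletal muscle, summed to 4611 and 1686 CPM in the same 2 and to no more than 33.3 CPM in the other 8. Their part in the CASQ2 reads was not tested.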

How the data were processed

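Bovine fetal organs were sequenced after a stranded mRNA kit and maternal blood after another stranded kit. The authors discarded organ samples of low RNA quality, trimmed reads with Trimmomatic, mapped them with STAR 2.7.0b to ARS-UCD1.3 and counted reads per gene with featureCounts (Subread 2.0.3). They deposited whole-number counts with no normalization stated; options for strand, read pairs and multi-mapping are not given in the sources used here, so overlapping genes are uncertain. Even numbers made up 55.7% to 71.5% of the heart counts between 1 and 20, against 83.8% to 87.9% in blood.

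Symbols came from a RefSeq table of ARS-UCD2.0, another build than that of the counts, which was used for names and for which genes overlap. Members and lists were chosen with earlier results of these data known. Counts were tested in R 4.3.3 with edgeR 4.0.16 (TMM, glmQLFit, glmQLFTest, Benjamini-Hochberg over all genes tested, threshold 0.05). The 26 organ libraries were fitted together by organ, over 25095 genes with a count. The 9 heart libraries were fitted along weight (spline, line) and by transfer group, over 16250 genes that reached 10 counts in 4 or more libraries. DESeq2 1.42.0 was an alternative. Scripts were tested on simulated data. Each library was 1 fetus or dam, and organs shared fetuses: the correlation of deviations from the organ mean between organs of the same fetus had a median of 0.16 for heart and gonads, 0.018 for heart and liver and 0.055 for gonads and liver, over 7048 genes. Over single fetuses it ran from -0.48 to 0.50, from -0.53 to 0.45 and from -0.21 to 0.19, in the same order. The medians therefore do not show that organs of 1 fetus were independent. Blood was not tested against organs. The named genes were all 9 members; in each other list, up to 4 higher and 2 lower in heart than in both organs, and close paralogs; and the 2 most like genes of each member. Some genes of the lists are counted but their values are not reported here.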

Additional observations from a re-analysis of the deposited data

Results flagged for a closer look

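Each gene was examined for a library standing far from the rest of its group, in 48 groups of 4 to 10 libraries, and 8 were found. Chance would give about 2.4 if the groups were independent. They were not: the heart of fetus 10 counts for ATP2A2 both among all hearts and among the ET_D9 hearts. Some of the 8 also rest on few reads, so the number found is a description and not a test. In heart, ATP2A2 was highest in fetus 10, at 368 CPM against 221 CPM in the next (scaled over the organs), and again among the ET_D9 hearts at 278 CPM against 169 CPM (scaled over the hearts). In gonads, HCN4 was highest in fetus 7, at 4.51 CPM against 3.27 CPM, and POPDC2 in fetus 3, at 0.152 CPM against 0.0397 CPM, which is 8 reads against 2.

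In maternal blood, the dam of fetus 2 had the highest ATP2A2, 207 CPM against 172 CPM in the next, and the highest CASQ2, 3.10 CPM against 1.42 CPM. The dam of fetus 10 had the highest GJA1, 1.42 CPM against 0.365 CPM, and the only HCN4 reads, 6 in all, at 0.152 CPM. Blood entered no comparison, and 4 of the genes were read in 10 of 10 of its libraries: the lowest library had 138 CPM of ATP2A2, 22.7 CPM of SLC8A1, 2.35 CPM of CACNA1C and 0.0974 CPM of RYR2. No untreated or non-pregnant blood was at hand to set beside these values.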

How the results depend on the processing

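The differences of heart from gonads and from liver kept their direction and their side of the threshold for the 8 genes tested in 120 of 120 values each, under other size factors, DESeq2, a count filter, counts without mitochondrial genes, fetus as a replicate block and each fetus left out. Size factors of DESeq2 moved the median heart to liver difference of all genes from 0 to -0.13, and ATP2A2 from 1.11 to 0.94. Between gonads and liver, the paired fit with fetus as a block changed the call of POPDC2 alone (-2.07, adjusted p = 0.0849, edgeR), and leaving out each fetus gave -3.96 to -1.63 for POPDC2; CASQ2 lay between -0.61 and 0.34 there, above 0 without fetus 3 (0.16) or fetus 8 (0.34). Along the line of weight, the number of the 8 genes called went from 0 to 1 with DESeq2 and lay between 0 and 3 with each fetus left out, and that of all genes from 1101 to 3066 with DESeq2, 706 without the filter, and 0 with transfer group as a covariate, without fetuses 9 and 10 or scaled to cardiomyocyte genes, and between 0 and 3947 with each fetus left out (3947 without fetus 3). Along the spline, DESeq2 called 535 genes in place of 0. Between transfer groups, DESeq2 called 1 of the 8 genes and 2166 of all genes in place of 0 and 8, and leaving out each fetus gave 0 to 1 and 0 to 2846 (the highest without fetus 3). The cause of these changes was not tested. Slopes that turned their sign were those of SLC8A1 (0.11 with the covariate, 0.00722 without fetuses 9 and 10), CASQ2 (0.0181 with the covariate), HCN4 (0.0471 with the covariate, and a range with each fetus left out of -0.125 without fetus 9 to 0.0385 without fetus 10), CACNA1C (-0.22 without fetuses 9 and 10, and -0.0582 without fetus 9 to 0.0652 without fetus 8 with each fetus left out) and GJA1 (-0.0191 without fetus 10 to 0.187 without fetus 9). The group difference of CACNA1C, -0.0013, turned to 0.0234 with other size factors and with DESeq2, to 0.00354 without mitochondrial genes and to 0.00295 without the filter, and lay between -0.18 and 0.18 with each fetus left out; that of GJA1 lay between -0.0588 without fetus 10 and 0.41 without fetus 3. The correlations among hearts of RYR2, POPDC2 and the mitochondrial share stayed between 0.91 and 0.99 under 11 settings each, chosen after seeing the data. With 9 hearts the 95% interval of the slope ran from 0.08 to 0.47 for ATP2A2 and from -0.10 to 0.05 for CASQ2.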
